A study of Mus musculus with 12 samples.

Results

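Wild-type Dppa2 and Dppa4 were put back into mouse embryonic stem cells labelled as knockouts of both, and the transcripts of these cells were compared with those of the knockout cells. The comparison took 6 of the 12 arrays of the series, the 3 whose titles name a knockout with wild-type Dppa2/4 fused to GFP (KO+WT) and the 3 whose titles name the knockout without add-back (KO). All 22180 genes with a probe set of their own on the array were compared, each by the probe set with the highest mean over the 12 arrays. The samples of every group carried the Mervl::tdTomato reporter, a red fluorescent protein driven by sequence of the MERVL endogenous retrovirus. The groups were KO+WT cells, KO cells with both Dppa2 and Dppa4 knocked out, KO cells with a SUMO-deficient form of both proteins fused to GFP (KO+Mut), and parental reporter cells with neither gene knocked out, with 3 arrays each. All were grown in LIF and serum replacement on gelatin. Those given add-back had been transfected by lipofection and sorted for GFP, and the labels do not say whether the KO and parental cells went through these steps, so the added proteins cannot be told apart from transfection and sorting. The sources used here do not give the number of knockout clones, the time after transfection or the form of the added transgenes.

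Dppa2 and Dppa4 are small proteins with a DNA-binding SAP domain that act as a pair and are made in early embryos, germ cells and pluripotent stem cells. In embryonic stem cell cultures a small share of cells enters a 2-cell-like state, in which MERVL and genes of the 2-cell embryo such as the Zscan4 family are transcribed. Dppa2 and Dppa4 are known to bind the Dux locus, whose product switches on much of that program, and to keep the promoters of some germline and developmental genes free of DNA methylation.

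The sequence before the start is shown for 8 genes that responded, picked because the results below return to them. Each is the 250 bases upstream of the first start that RefSeq lists for the gene (GRCm38.p6), written 5′ to 3′ on the gene's strand, with every CG in capitals.
Zscan4c (chr7:11005495-11005744, + strand): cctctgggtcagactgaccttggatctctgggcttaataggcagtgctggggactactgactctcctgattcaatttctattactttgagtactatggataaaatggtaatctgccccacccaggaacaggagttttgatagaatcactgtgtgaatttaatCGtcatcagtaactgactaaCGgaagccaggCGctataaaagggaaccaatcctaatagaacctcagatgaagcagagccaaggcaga
Zscan4d (chr7:11166149-11166398, - strand): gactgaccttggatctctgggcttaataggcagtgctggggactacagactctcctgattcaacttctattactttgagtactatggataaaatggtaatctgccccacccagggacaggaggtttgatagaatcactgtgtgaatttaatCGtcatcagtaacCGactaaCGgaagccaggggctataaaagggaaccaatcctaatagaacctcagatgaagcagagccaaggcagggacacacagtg
Usp17lb (chr7:104842584-104842833, - strand): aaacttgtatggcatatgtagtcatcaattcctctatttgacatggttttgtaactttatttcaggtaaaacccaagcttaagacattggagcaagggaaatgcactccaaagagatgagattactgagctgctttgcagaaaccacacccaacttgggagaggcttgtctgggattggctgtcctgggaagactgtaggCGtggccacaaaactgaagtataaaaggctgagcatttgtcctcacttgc
Pramel19 (chr4:101940157-101940406, + strand): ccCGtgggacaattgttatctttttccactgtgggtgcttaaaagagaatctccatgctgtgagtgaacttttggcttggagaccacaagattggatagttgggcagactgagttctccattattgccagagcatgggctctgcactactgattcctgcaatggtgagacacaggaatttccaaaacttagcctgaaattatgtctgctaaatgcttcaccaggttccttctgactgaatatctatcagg
Dazl (chr17:50293621-50293870, - strand): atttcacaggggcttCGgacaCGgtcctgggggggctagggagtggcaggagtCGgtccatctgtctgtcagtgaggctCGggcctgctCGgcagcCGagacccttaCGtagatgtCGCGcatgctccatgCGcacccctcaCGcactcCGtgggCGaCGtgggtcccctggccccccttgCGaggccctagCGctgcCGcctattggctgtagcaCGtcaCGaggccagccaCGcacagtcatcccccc
Ddx4 (chr13:112652311-112652560, - strand): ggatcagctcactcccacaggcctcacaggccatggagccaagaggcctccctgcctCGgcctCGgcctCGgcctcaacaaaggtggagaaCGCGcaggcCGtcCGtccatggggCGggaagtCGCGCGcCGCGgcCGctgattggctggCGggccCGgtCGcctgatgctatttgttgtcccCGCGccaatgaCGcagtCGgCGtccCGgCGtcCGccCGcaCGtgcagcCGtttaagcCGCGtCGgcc
Fzd4 (chr7:89404116-89404365, + strand): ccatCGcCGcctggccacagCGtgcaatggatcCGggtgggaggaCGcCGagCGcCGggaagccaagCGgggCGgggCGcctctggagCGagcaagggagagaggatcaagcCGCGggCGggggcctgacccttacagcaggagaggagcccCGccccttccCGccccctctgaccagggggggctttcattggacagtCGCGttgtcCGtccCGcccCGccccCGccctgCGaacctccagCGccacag
Eng (chr2:32646345-32646594, + strand): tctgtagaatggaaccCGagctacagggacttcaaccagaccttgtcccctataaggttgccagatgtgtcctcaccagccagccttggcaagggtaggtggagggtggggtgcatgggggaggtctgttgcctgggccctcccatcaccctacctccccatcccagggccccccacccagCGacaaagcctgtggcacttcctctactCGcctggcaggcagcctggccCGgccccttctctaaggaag
The first 4 belong to genes of the 2-cell embryo, the next 2 to germline genes, and Fzd4 and Eng encode cell surface receptors. The 2 Zscan4 stretches held 3 CG each, and when shifted by 11 bases they were identical at 232 of 239 positions. Usp17lb and Pramel19 held 1 CG each, Dazl 20, Ddx4 31, Fzd4 25 and Eng 4. Over the 27025 promoters of the table the quartiles of that count were 2, 6 and 16. TATAAA, searched on both strands, began 54 bases before the start of Zscan4c, 65 before that of Zscan4d and 31 before that of Usp17lb. It was found in 12.97% of the promoters in the table, and a match to these letters is a description, not a binding site.

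Both added genes were checked before any other. In KO+WT cells Dppa2 had a signal (log2) of 10.79, 11.34 and 11.11 on replicates 1, 2 and 3, against 8.13, 8.69 and 8.63 on replicates 1, 2 and 3 of KO cells. Dppa4 signal was 10.09, 10.58 and 10.49 in KO+WT cells, against 7.92, 7.63 and 7.31 in KO cells. Neither gene overlapped between the groups, and both were lowest on replicate 1 of the KO+WT arrays. Dppa2 was 2.60 higher (SE 0.21, adjusted p = 2.83e-05) and Dppa4 2.77 higher (SE 0.18, adjusted p = 2.94e-06). These and all adjusted p-values below are from limma, with Benjamini-Hochberg adjustment over the 22180 genes and a threshold of 0.05. The sources used here do not place the probes within or outside the sequence that the knockout removed, so the signal left in KO cells cannot be read as protein or as intact transcript. Against parental cells, KO cells had 1.29 less Dppa2 signal (adjusted p = 0.0259) and 0.84 less Dppa4 signal, which did not pass (adjusted p = 0.102), so these arrays alone do not show the loss of Dppa4. Of the other members of the Dppa gene family, which share a name and not a function, Dppa1, Dppa3 and Dppa5a differed by -0.27, -0.21 and -0.11 and did not pass.

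All 8 markers of embryonic stem cells that were looked up, Pou5f1, Nanog, Sox2, Zfp42, Esrrb, Klf4, Sall4 and Lin28a, were measured. They lay between percentiles 75.7 and 99.6 of all genes in KO+WT cells and between 77.1 and 99.5 in KO cells, and none passed the test between the groups. Nothing in the labels beyond the words biological replicate tells how the 3 samples of a group were obtained, and the p-values rest on the spread among them.

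In all, 162 genes were higher in KO+WT than in KO cells, 0.730% of those tested, and 22 were lower, or 0.0992%, so that 0.830% of the genes tested changed. At least a 2-fold change was found in 100 of the higher genes (0.451%) and in 5 of the lower ones (0.0225%). No gene among the 184 overlapped between the groups; over all genes the KO+WT arrays lay entirely above the KO arrays in 8.60% and entirely below in 7.42%. With each array centred on its median, which removes a shift of 0.0773 (log2) between the groups, 112 genes were higher and 37 lower, so the share of higher calls was 75.2% after centring and 88.0% before. The counts also turned on single arrays. Without replicate 2 of KO+WT 83 genes were higher, while dropping KO replicate 1, 2 or 3 left 104, 80 or 86. Lower genes numbered 10, 7 or 12 when KO+WT replicate 1, 2 or 3 was dropped, and 10, 6 or 7 when KO replicate 1, 2 or 3 was. Protein-coding genes made up 153 of the rises and 16 of the falls, and the falls included 2 microRNA, 2 small nucleolar RNA and 2 long noncoding RNA genes.

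**Figure D1:**
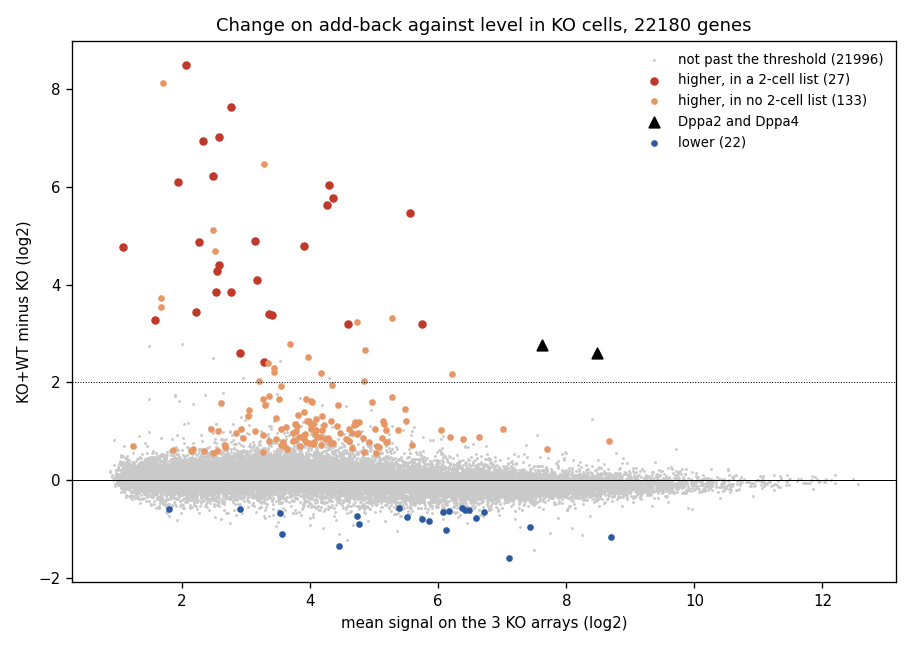
Difference between KO+WT and KO cells (log2, vertical) against the mean signal on the 3 KO arrays (log2, horizontal), 1 point per gene, with the 162 higher genes, the 22 lower genes and the added genes Dppa2 and Dppa4 in colour or black. Points above the dotted line at 2 stand mostly at the left, where KO signals are low, and 27 of the higher points belong to a list of 2-cell genes.

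Genes that are transcribed in the 2-cell embryo made up 27 of the 45 rises of 2 or more (log2), Dppa2 and Dppa4 left out. Of 101 measured genes in 9 lists of such genes, 27 rose and 0 fell, 80 had a positive difference and their median difference was 0.46. Of all 22180 genes 162 rose and 22 fell, 11061 had a positive difference and the median was near 0 (-0.00075). The lists were chosen with earlier results of these data known, and some members are copies of each other. The counts are therefore descriptions and not a test of the lists. At an unadjusted p below 0.05 the 2-cell lists held 47 genes, where 2662 of the 22180 genes lay. In bulk RNA a larger share of cells with the transcript and more transcript per cell cannot be told apart.

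Zscan4 genes encode zinc-finger proteins with a SCAN domain that are tied to telomere upkeep in embryonic stem cells, and 5 of 5 rose. RefSeq lists Zscan4e and Zscan4a as pseudogenes. Zscan4e had a signal of 9.53, 10.69 and 11.42 in KO+WT cells, against 2.40, 1.87 and 1.90 in KO cells. Its difference of 8.49 (SE 0.45, adjusted p = 1.17e-06) was the largest of all 22180 genes. Its KO signals lay below 2.745, the lower quartile of the 22180 genes in KO cells, where a signal cannot be separated from background, so the size of the change is uncertain. Zscan4c stood at 8.98, 10.31 and 11.08 in KO+WT cells, against 3.97, 4.53 and 4.57 in KO cells, a difference of 5.77 (SE 0.47, adjusted p = 2.83e-05). Zscan4b, Zscan4d and Zscan4a differed by 6.95, 4.90 and 3.19. The call of Zscan4a (SE 0.61, adjusted p = 0.0323) held in 1 of the 6 fits that each left out an array, and its adjusted p reached 0.106 without KO+WT replicate 2. The promoters of Zscan4c and Zscan4d are near-identical, and whether a probe set of one copy reads transcripts of another was not tested. Set against parental cells, the mean of the family was 9.15 ± 1.26 in KO+WT cells, 3.29 ± 0.08 in KO cells and 5.37 ± 0.66 in parental cells (SD, n = 3).

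Usp17l genes encode deubiquitinases, enzymes that take ubiquitin off other proteins. Of 5 members 4 rose, with a family median of 3.19. Usp17le was at 9.0, 9.76 and 10.04 in KO+WT cells, against 2.04, 3.09 and 2.61 in KO cells, a difference of 7.02 (SE 0.32, adjusted p = 3.26e-07). Usp17lb, whose promoter is shown above, was at 3.36, 5.36 and 5.88 in KO+WT cells, against 1.81, 1.64 and 1.31 in KO cells. It differed by 3.28 (SE 0.46, adjusted p = 0.00411). The members differed in how evenly the KO+WT arrays showed the change: the SD of the 3 arrays was 0.32 for Usp17la and 1.33 for Usp17lb. Usp17ld and Usp17la differed by 3.19 and 2.42 (highest adjusted p = 6.16e-05), and Usp17lc by 2.75 (SE 0.59), which missed the threshold (adjusted p = 0.0526).

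The list of translation-factor-like and predicted 2-cell genes had 7 of 9 members higher, with a median of 4.79. Eif4a3l1, a copy of the gene of the RNA helicase Eif4a3, was at 8.73, 10.10 and 10.84 in KO+WT cells, against 4.28, 4.09 and 4.42 in KO cells. It differed by 5.63 (SE 0.50, adjusted p = 6.61e-05). The predicted genes Gm5662, Gm2022, Gm4340, Gm8300, Gm2035 and Gm2016 rose by 6.23, 6.05, 5.47, 4.79, 3.85 and 3.39. Eif1ad, which encodes a protein with an eIF1A domain, differed by -0.18 (adjusted p = 0.567) and Gm4850 by -0.16 (adjusted p = 0.852).

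In larger families a few members rose and most did not pass. Of 30 Pramel genes, which encode leucine-rich repeat proteins related to PRAME, 3 rose, and the family median was 0.15. Pramel19 was at 9.26, 10.84 and 11.09 in KO+WT cells, against 2.42, 2.92 and 2.95 in KO cells, a difference of 7.63 (SE 0.46, adjusted p = 2.53e-06). Pramel31 differed by 4.77 (SE 0.51) and Pramel24 by 2.60 (SE 0.53, adjusted p = 0.0386). The Pramel24 call held in 1 of those 6 fits, up to an adjusted p of 0.145 without KO replicate 3. Tdpoz genes encode proteins with TRAF and POZ domains, and of 6 members 1 passed. Tdpoz3 was at 6.89, 8.26 and 8.97 in KO+WT cells, against 2.17, 1.83 and 1.81 in KO cells, a difference of 6.11 (SE 0.41, adjusted p = 4.65e-06), and its groups lay far apart. Tdpoz8 differed by 2.50 with an adjusted p of 0.0807, and all 6 members had a positive difference. Of 10 Tcl1 and Tcstv genes, Tcstv3 (4.87) and AF067061 (4.27) rose, while Tcl1, a coactivator of the Akt kinases that is well expressed in embryonic stem cells, differed by -0.39 (adjusted p = 0.17).

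A further 25 measured genes known from 2-cell embryos or 2-cell-like cells belonged to no such family, and 5 rose. Sp110, a nuclear body protein gene, was at 5.87, 7.23 and 7.83 in KO+WT cells, against 2.46, 2.67 and 2.61 in KO cells (difference 4.39, SE 0.38, adjusted p = 5.72e-05). Its 3 probe sets disagreed in size, and their mean differed by 2.23 (adjusted p = 0.000311). Arg2, the gene of mitochondrial arginase, was at 5.47, 7.33 and 7.55 in KO+WT cells, against 3.43, 3.18 and 3.64 in KO cells (difference 3.37, SE 0.46, adjusted p = 0.00373). In both genes every KO+WT array was above every KO array, and replicate 1 was the lowest of the KO+WT arrays. The other 3 were Tmem92 (4.09), Gm20767 (3.86) and B020031M17Rik (3.43). Duxf3, a copy of the homeobox gene Dux, was at 2.04, 2.33 and 2.34 in KO+WT cells, against 1.37, 1.49 and 1.13 in KO cells. The groups did not overlap, but the levels were near the floor of the arrays and the difference of 0.91 (SE 0.28) did not pass (adjusted p = 0.204). Zfp352, a zinc-finger gene of the 2-cell stage, differed by 0.49 (SE 0.32, adjusted p = 0.584) and its groups overlapped. Of 8 Obox and Rfpl4 genes 0 passed limma's test and 2 had an unadjusted p below 0.05, and of 3 Trim43 genes 0 passed at either level.

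**Figure D2:**
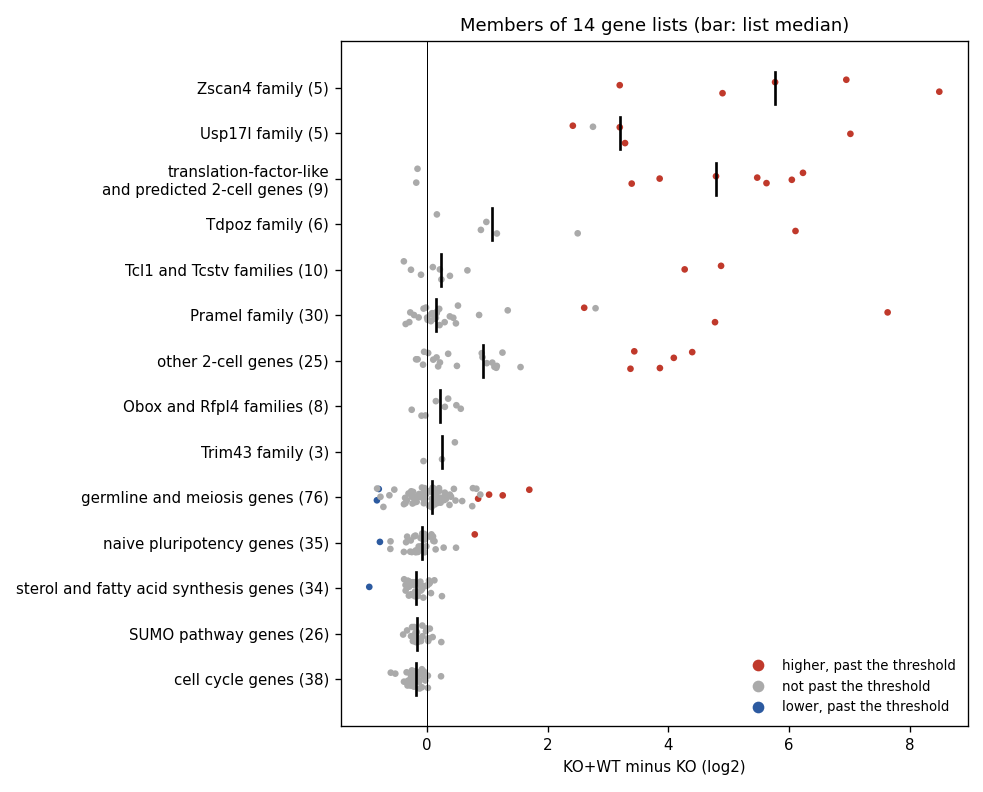
Difference between KO+WT and KO cells (log2, horizontal) for each measured member of 14 gene lists, 1 point per gene, with the number of members in brackets and the list median as a bar. Red points passed the test upward, blue points downward and grey points did not pass; the Zscan4, Usp17l and translation-factor-like lists lie mostly to the right, while in the Pramel list 3 of 30 points are red.

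Some of the genes that rose are neighbours in the genome. In the order of measured genes in the RefSeq table, allowing 1 uncalled gene between, 29 of the 161 higher genes that could be placed fell into 8 runs, and the 22 lower genes into 0. Dppa4 and Dppa2 themselves formed 1 of the runs. The longest run was Gm11545, Tmem92, Gm11546, AA623943, Gm11543 and Gm11544, with differences of 1.46, 4.09, 5.12, 3.73, 8.13 and 1.67. Gm11543 had 8.64, 10.30 and 10.57 in KO+WT cells, against 1.14, 2.52 and 1.46 in KO cells, and was in no 2-cell list. Of that run the calls of Gm11545, AA623943 and Gm11544 were lost without at least 1 array (highest adjusted p = 0.0994, 0.0514 and 0.0674, without KO+WT replicate 2, KO replicate 3 and KO+WT replicate 2). A run of Gm1995, Gm2016, Gm2022, Gm2035, Gm2046 and Gm5662 was interrupted by Pramel51 (0.16, adjusted p = 0.733), and the call of Gm1995 held in 3 of the 6 fits that drop an array (adjusted p up to 0.0654 without KO+WT replicate 2). Zscan4a to Zscan4e formed another run around the uncalled Gm6909 (0.81, adjusted p = 0.285), as did Usp17le, Usp17lb and Usp17la. Whether the probes of copies of 1 gene are shared, so that a run counts the same transcripts more than once, was not tested. Fermt1 and Lrrn4, which are not copies of each other, also stood side by side among the rises, but the call of Lrrn4 held in 1 of those 6 fits (adjusted p up to 0.0848 without KO+WT replicate 2).

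The 162 rises were of very unequal size, and those of 2 or more (log2) are described below apart from those under 2. This division uses the sizes of the same comparison, so the values of both groups are descriptions. The threshold also ties size to spread, since a gene with widely spread arrays passes only with a large difference. Arhgef26, with an SE of 0.51, rose by 2.39 and only just passed (limma adjusted p = 0.0499). Smaller rises could therefore be called only where the SE was small. Leaving out Dppa2 and Dppa4, 45 genes rose by 2 or more, with a median KO signal of 3.20, and 27 of them were in a 2-cell list. The 115 smaller rises had a median KO signal of 4.05, and 0 of them were in a 2-cell list. The threshold bears on that count too: 47 genes of the 2-cell lists had an unadjusted limma p below 0.05, and 27 passed. The smallest of the larger rises was that of Igfbp3 (2.02) and the largest of the smaller ones that of Gm15455 (1.95).

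The mean signal of the 45 larger rises was 6.41, 7.91 and 8.33 on KO+WT replicates 1, 2 and 3, against 3.27, 3.29 and 3.32 on those of KO. KO+WT replicate 1 was the lowest of its group in 45 of 45 genes. The 115 smaller rises averaged 5.09, 5.27 and 5.14 on the KO+WT arrays, against 4.19, 4.16 and 4.12 on the KO arrays, and replicate 1 was the lowest in 43 and the highest in 37. Among all 22180 genes KO+WT replicate 1 was the lowest in 7155. The median SD among KO+WT arrays was 1.05 for the larger and 0.21 for the smaller rises, against 0.29 and 0.17 among KO arrays. The threshold by itself favours this contrast in spread, so it cannot be read as a trait of the genes. Dppa2 and Dppa4 were also lowest on KO+WT replicate 1. The low replicate 1 was not confined to KO+WT cells. The 45 larger rises averaged 4.11, 4.63 and 4.52 on parental replicates 1, 2 and 3, and 7.55, 8.24 and 8.76 on those of KO+Mut. In parental cells Dppa2 and Dppa4 were both lowest on replicate 1, but in KO+Mut cells Dppa2 was lowest on replicate 1 and Dppa4 on replicate 3. The parts that the level of the added genes and the replicate number have in this pattern were not tested.

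**Figure D3:**
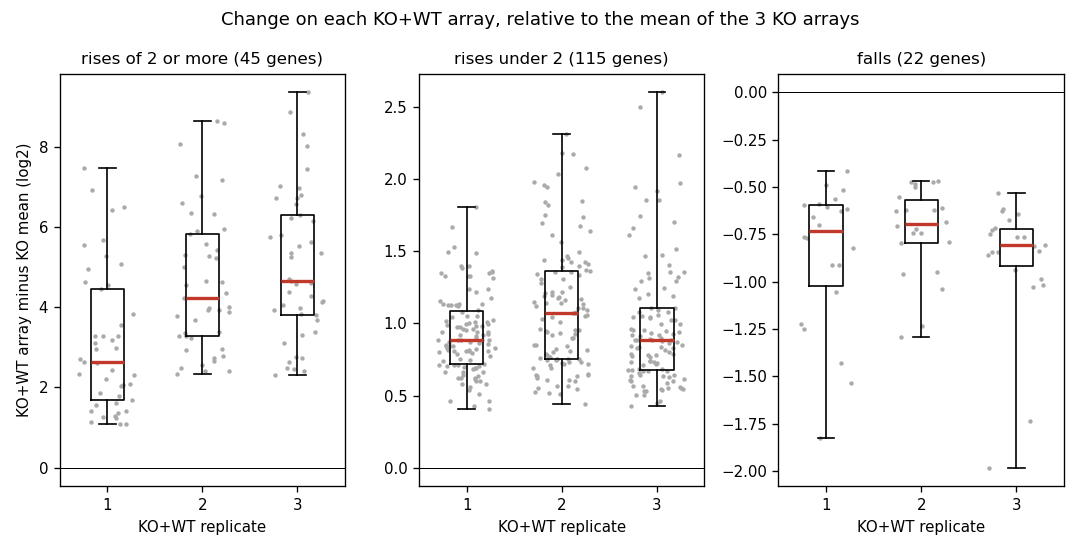
Signal on each KO+WT array minus the mean of the 3 KO arrays (log2, vertical) by KO+WT replicate (horizontal) for the 45 rises of 2 or more without Dppa2 and Dppa4, the 115 rises under 2 and the 22 falls, each panel with its own vertical scale. Grey points are genes, boxes span the quartiles with the median in red and whiskers reach the extremes; replicate 1 was the lowest array for 45 of 45 genes in the left panel and for 43 of 115 in the middle one.

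Leaving out KO+WT replicate 1 kept 47 of the 47 larger rises, Dppa2 and Dppa4 included, past the threshold and 67 of the 115 smaller ones. With each array centred on its median, 46 of the 47 larger and 66 of the 115 smaller rises were still called. Over the 6 fits that each left out an array, 37 of the 47 larger and 29 of the 115 smaller rises passed every time, and 0 and 12 passed in none.

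Larger rises outside the 2-cell lists included genes with known roles elsewhere. Ccl3, the gene of an inflammatory chemokine, was at 5.52, 7.96 and 8.15 in KO+WT cells, against 2.77, 2.66 and 2.13 in KO cells. It differed by 4.69 (SE 0.55, adjusted p = 0.000985), and replicate 1 was the low KO+WT array here too. H2ac1, a histone H2A gene of germ cells, was at 8.0, 8.68 and 9.12 in KO+WT cells, against 4.55, 4.97 and 6.35 in KO cells. It differed by 3.31 (SE 0.51, adjusted p = 0.0075), with KO replicate 3 well above the other KO arrays, and was the 1 called gene among 30 replication-dependent histone genes.

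Of 76 measured germline and meiosis genes 4 rose and 2 fell, against 0.730% and 0.0992% of all genes, and their median was 0.07. Dazl, an RNA-binding protein gene that germ cells need, was at 6.77, 6.89 and 7.25 in KO+WT cells, against 5.31, 5.02 and 5.49 in KO cells, a difference of 1.69 (SE 0.17, adjusted p = 0.000181). Ddx4, the gene of the germ cell RNA helicase Vasa, was at 5.44, 5.43 and 5.17 in KO+WT cells, against 4.25, 3.96 and 4.08 in KO cells, a difference of 1.25 (SE 0.16, adjusted p = 0.00214). In both, the groups were separated by more than either group's range. Slc25a31, which encodes the ATP/ADP carrier of testis mitochondria, differed by 0.85 (SE 0.12, adjusted p = 0.00563). Mov10l1, the gene of a helicase of the piRNA pathway, differed by 1.03 (SE 0.19, adjusted p = 0.024). Its call held in 1 of the 6 fits that drop an array, and the calls of Dazl, Ddx4 and Slc25a31 in 6 of 6. The promoters of Dazl and Ddx4 shown above are rich in CG.

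The 12 smaller rises of smallest p, a choice made after the values were seen, were led by Fermt1, Dazl, Dmrtb1 and Bicc1. Fermt1, which encodes the integrin activator kindlin-1, was at 4.27, 4.25 and 4.01 in KO+WT cells, against 2.89, 2.45 and 2.47 in KO cells (difference 1.57, SE 0.15, adjusted p = 0.000156). Dmrtb1 encodes a DM-domain transcription factor of male germ cells and differed by 1.15 (SE 0.13, adjusted p = 0.000667). Bicc1, an RNA-binding protein gene, differed by 1.19 (SE 0.14). Several others encode proteins of the cell surface and its inner side. The Wnt and Norrin receptor gene Fzd4 was at 5.61, 5.78 and 5.62 in KO+WT cells, against 4.79, 4.62 and 4.81 in KO cells (difference 0.93, SE 0.12, adjusted p = 0.00152). Ret, the receptor tyrosine kinase gene for ligands of the GDNF family, was at 5.33, 6.02 and 5.46 in KO+WT cells, against 4.23, 3.78 and 3.81 in KO cells (difference 1.67, SE 0.21, adjusted p = 0.00198). Eng, the gene of the TGF-beta coreceptor endoglin, was at 8.15, 8.09 and 7.93 in KO+WT cells, against 6.92, 6.93 and 7.20 in KO cells (difference 1.04, SE 0.14, adjusted p = 0.00241). In Fzd4 and Eng the KO+WT arrays lay close together, while in Ret replicate 2 stood above the other KO+WT arrays. Epb41l3 of the membrane skeleton (1.13), Slc35f1 (1.04), the postsynaptic scaffold gene Homer2 (1.32) and the lens crystallin gene Cryaa (1.65) completed the 12. The means of the 2 probe sets each of Slc35f1 and Cryaa differed by less, 0.69 and 0.87 (adjusted p = 0.0329 and 0.0081). In each of the 6 fits that drop an array all 12 calls held, which a choice by smallest p on the same arrays favours. Of all 115 smaller rises 29 held in every fit.

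**Figure D4:**
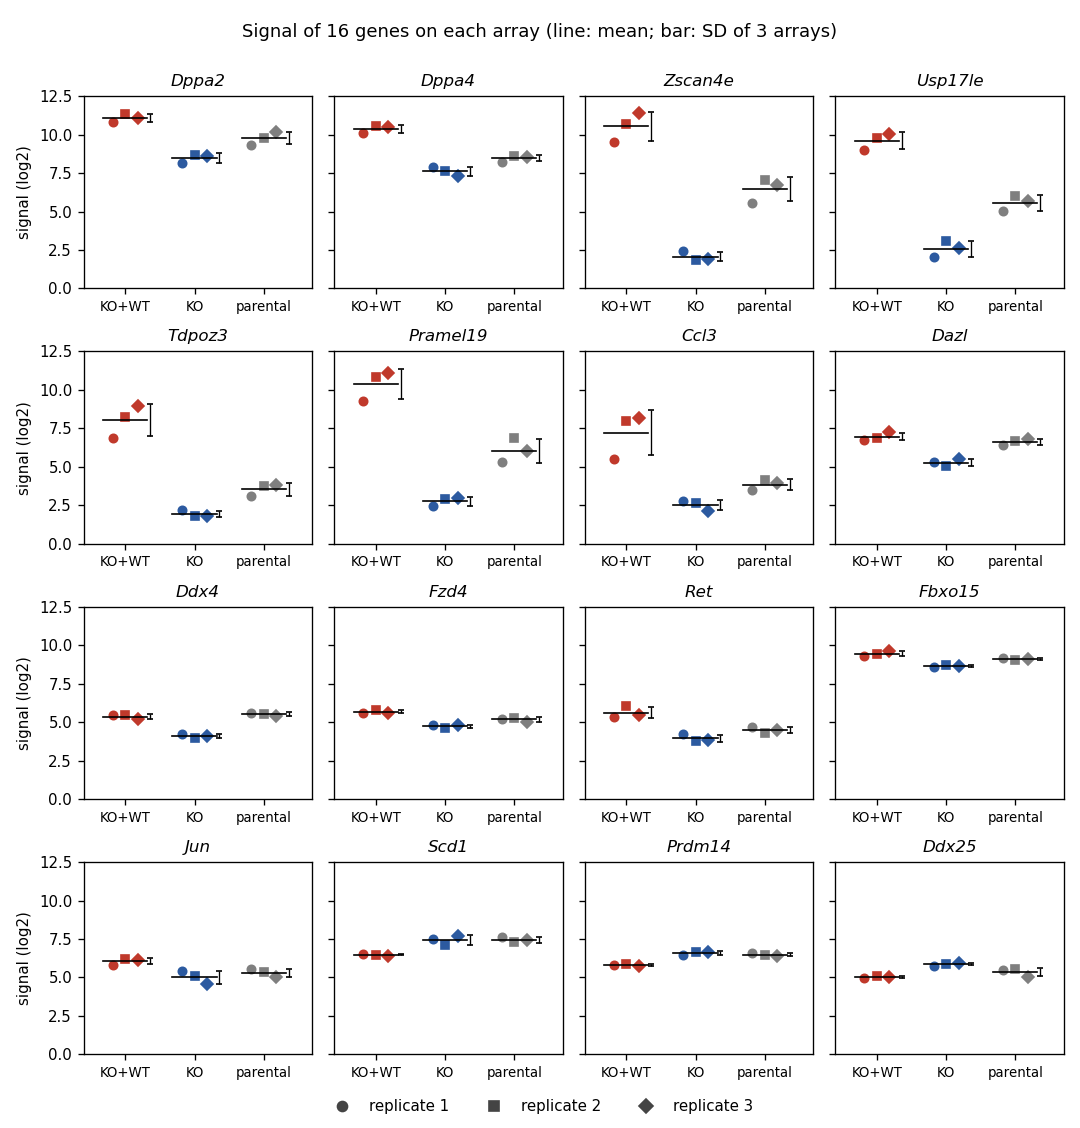
Signal (log2, vertical) of 16 genes on each array of the KO+WT, KO and parental groups (horizontal), 1 symbol per replicate, with the mean as a line and the SD of 3 arrays as a bar. Zscan4e, Tdpoz3, Pramel19 and Ccl3 show KO+WT arrays spread apart and far above both other groups. Usp17le is also far above them, with an SD (0.54) like that of KO (0.53) and parental cells (0.52). Dazl and Ddx4 show tight KO+WT arrays near the parental ones, and Scd1, Prdm14 and Ddx25 are lower in KO+WT than in KO cells.

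The level that add-back reached relative to parental cells differed between these genes. The comparison of KO+WT with parental cells shares its KO+WT arrays with the one above, so the values are given side by side and not as separate support; it called 122 genes (0.550%). Zscan4e was 4.08 above parental cells (adjusted p = 0.000939), Usp17le 4.03 (adjusted p = 7.32e-05), Pramel19 4.35 (adjusted p = 0.00062) and Tdpoz3 4.49 (adjusted p = 0.000253). Dppa2 itself was 1.31 and Dppa4 1.93 above parental cells (adjusted p = 0.0154 and 0.000253). Dazl differed from parental cells by 0.35 (adjusted p = 0.492), Ddx4 by -0.16 (adjusted p = 0.782), Slc25a31 by 0.08 (adjusted p = 0.874) and H2ac1 by 0.86 (adjusted p = 0.59). None of these 4 passed, which does not show that the levels were equal. As groups, the 45 larger rises averaged 7.55 ± 1.01 in KO+WT cells, 3.29 ± 0.03 in KO cells and 4.42 ± 0.28 in parental cells. The 115 smaller rises averaged 5.16 ± 0.09 in KO+WT cells, 4.16 ± 0.04 in KO cells and 4.56 ± 0.01 in parental cells (SD, n = 3). Every KO+WT array was above every parental array in 44 of the 45 larger and 90 of the 115 smaller rises, against 8.05% of all genes. The rises were picked for high KO+WT signals, which by itself favours this count, so the share of all genes is not a matched background.

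Promoter sequence could be read for only part of these genes. A promoter was in the table for 25 of the 45 larger rises (55.6%), 99 of the 115 smaller rises (86.1%), 14 of the 22 falls (63.6%) and 16918 of all genes (76.3%). Fewer than 80% of the larger rises and of the falls had a value, so a comparison of CG content between the classes is void. Among the genes named by rule, the 15 larger rises with a promoter held 0 to 6 CG in 250 bases, and 7 of them held TATAAA. The 13 smaller rises with a promoter held 4 to 40 CG, and 0 held TATAAA. The 9 falls held 1 to 34 CG, and 1 held TATAAA. Eng, with 4, was the smaller rise with the lowest count. These genes were picked by size of change, smallest p or list. The larger rises with TATAAA included members of the same families, Zscan4b, Zscan4c and Zscan4d, and Usp17lb and Usp17ld. The ranges therefore describe the named genes and cannot be read as a difference between the classes.

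Of 35 measured naive pluripotency genes 1 rose and 1 fell, against 0.730% and 0.0992% of all genes. Fbxo15, an F-box gene of embryonic stem cells, was at 9.28, 9.45 and 9.63 in KO+WT cells, against 8.60, 8.72 and 8.67 in KO cells (difference 0.79, SE 0.12, adjusted p = 0.00689). Prdm14, whose product holds back DNA methylation and differentiation genes, was at 5.82, 5.86 and 5.73 in KO+WT cells, against 6.43, 6.67 and 6.65 in KO cells. It was the gene that fell (difference -0.78, SE 0.13, adjusted p = 0.0148), and its call held in 2 of the 6 fits that drop an array, with an adjusted p up to 0.0783 without KO replicate 2. Lin28a differed by -0.61 (SE 0.28, adjusted p = 0.417), with the KO+WT arrays spread from 6.12 to 7.31. None of 21 formative and primed genes and none of 15 genes of DNA methylation and demethylation passed limma's test (2 and 0 at an unadjusted p below 0.05, where 2662 of the 22180 genes lay).

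In each of the remaining lists at most 1 gene passed. Jun, a subunit of the transcription factor AP-1, differed by 1.04 (SE 0.22, adjusted p = 0.0453) and was the 1 called gene of 33 in the AP-1 and immediate early list. Ddit4l, an inhibitor of mTORC1 signalling, differed by 1.14 (SE 0.23, adjusted p = 0.0384) and was the 1 called gene of 29 p53 targets. Foxf1, a forkhead gene of lateral mesoderm, differed by 0.69 (SE 0.15, adjusted p = 0.0499) and was the 1 called gene of 25 mesoderm markers. These 3 calls held in 1, 2 and 1 of the 6 fits that drop an array, with highest adjusted p of 0.159, 0.15 and 0.158 (without KO+WT replicate 2, KO replicate 2 and KO+WT replicate 2). They were also lost with each array centred on its median, at adjusted p of 0.0604, 0.0705 and 0.0952. None of the genes passed limma's test among 26 of the SUMO pathway, 32 chromatin modifiers tied to 2-cell transcription, 38 of the cell cycle, 35 of the ATF4 and unfolded protein response, 20 heat shock chaperones, 32 of the interferon response and 39 imprinted genes. At an unadjusted p below 0.05 these lists held 2, 2, 7, 2, 1, 3 and 6 genes, against 2662 of all 22180. The medians of the SUMO, chromatin and cell cycle lists were -0.16, -0.13 and -0.18, with 20 of 26, 28 of 32 and 35 of 38 members negative. Over all genes 11119 of 22180 were negative. The lean was not particular to these lists. Negative were also 13 of 15 genes of DNA methylation and demethylation, 26 of 35 naive pluripotency genes and 27 of 40 of oxidative phosphorylation. By contrast, 16 of 32 interferon response genes and 9 of 29 p53 targets were negative. What the lean comes from was not tested.

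Markers of other cell types were summed on each array (log2 signals). The 25 mesoderm markers summed to between 111.6 and 114.8 in KO+WT cells, against 106.3 and 109.7 in KO cells, and the 24 fibroblast markers to between 111.6 and 113.2 in KO+WT cells, against 108.2 and 110.4 in KO cells. These ranges did not overlap. With each array centred on its median, a setting added after the data were seen, the mesoderm sums did (14.68 to 18.81 in KO+WT and 12.93 to 14.96 in KO cells), and the fibroblast sums did not (19.13 to 20.35 in KO+WT and 18.58 to 18.95 in KO cells). None of the 24 fibroblast markers passed limma's test. Their mean without centring was 4.68 in KO+WT, 4.56 in KO and 4.70 in parental cells. The mesoderm and fibroblast lists both hold Pdgfra and Pdgfrb, so their sums are not separate observations. Among single genes the KO+WT arrays lay entirely above the KO arrays in 8.60%, and no such share was worked out for sums. The sums of the 27 endoderm markers (151.4 to 154.3 in KO+WT and 150.6 to 156.0 in KO cells), the 21 trophectoderm markers (99.2 to 105.5 in KO+WT and 99.9 to 104.0 in KO cells) and the 23 neuroectoderm markers (97.2 to 101.4 in KO+WT and 94.9 to 98.6 in KO cells) overlapped. Foxf1 rose among these markers and the endoderm marker Srgn fell, and the part of other cell types in the smaller rises was not tested.

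The 22 falls were small, with a median of 0.74 (log2), and began from KO signals with a median of 5.96. They averaged 4.74 ± 0.08 in KO+WT cells, 5.56 ± 0.05 in KO cells and 5.32 ± 0.03 in parental cells (SD, n = 3). Scd1, the gene of stearoyl-CoA desaturase, which makes monounsaturated fatty acids, was at 6.52, 6.49 and 6.42 in KO+WT cells, against 7.53, 7.08 and 7.70 in KO cells. It differed by -0.96 (SE 0.17, adjusted p = 0.0172) from KO and by -0.96 (adjusted p = 0.0252) from parental cells. Scd1 was the 1 called gene of 34 sterol and fatty acid synthesis genes, of which 27 were negative, against 11119 of all 22180 genes. That lean was not particular to this list. Other lists leaned the same way, with 35 of 38 cell cycle genes negative, and some did not, with 9 of 29 p53 targets negative. Ddx25, a testis RNA helicase gene, was at 4.94, 5.11 and 5.01 in KO+WT cells, against 5.77, 5.86 and 5.92 in KO cells (difference -0.83, SE 0.14, adjusted p = 0.0163). Gtsf1l, a relative of the piRNA factor gene Gtsf1, differed by -0.80 (SE 0.13, adjusted p = 0.0122), so that of the 6 called germline genes these 2 went down. The vault RNA gene Vaultrc5 was at 2.51, 2.28 and 2.58 in KO+WT cells, against 3.63, 3.82 and 3.25 in KO cells (difference -1.11, SE 0.17, adjusted p = 0.00824).

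The other falls named by size were those of the microtubule-associated protein gene Map7d3 (-1.02), the small GTPase gene Rab8b (-0.75), Ndufb11 of respiratory complex I (-0.74), the zinc-finger gene Zfp606 (-0.65), the proteoglycan gene Srgn (-0.65), Armcx2 (-0.62) and the transcription factor gene Stat4 (-0.62), with adjusted p between 0.0141 and 0.0499. Ndufb11 was the 1 called gene of 40 of oxidative phosphorylation. Among the 22 falls 0 were kept in all 6 fits without an array and 8 in none. The call of Scd1 was kept in 2 of 6 fits (adjusted p up to 0.0812 without KO replicate 3), that of Ddx25 in 3 (0.0753 without KO replicate 3), that of Gtsf1l in 4 (0.0613 without KO replicate 2) and that of Vaultrc5 in 4 (0.0532 without KO+WT replicate 2). After median centring 22 of the 22 were still called. Centring lowers every difference by 0.0773 (log2) and so enlarges each fall, which means that this count is no check on the falls.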

How the data were processed

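Labelled cDNA from total RNA was hybridised to 12 Affymetrix arrays. The authors deposited log2 signals, 1 per probe set, made with the Transcriptome Analysis Console, per the submitters' processing notes; the sources used here do not give its version, the background correction or the genome build. Array medians lay between 3.73 and 3.88. The number of arrays limits the precision. Of 41345 probe sets, 23521 had 1 symbol, 1814 several and 16010 none in GEO's platform annotation, and 22180 genes remained.

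Groups were compared with limma 3.58.1 under R 4.3.3 (lmFit, eBayes, 1 mean per group, all 12 arrays), two-sided, with Benjamini-Hochberg adjustment over all genes at 0.05 and no fold limit; the fit was tested on simulated data. Named genes were Dppa2 and Dppa4, the 15 largest rises and 12 largest falls whose groups did not overlap (outside the lists, no predicted, small RNA or chemosensory receptor genes), up to 4 members of each of 31 lists by smallest p (or the 1 of smallest p where none passed), members of 2-cell families and genes of neighbouring runs. The lists held 840 entries, 761 of them measured. The members and lists were chosen with earlier results of these data known. Promoters are RefSeq's (GRCm38.p6). Alternatives were a replicate block, the 6 arrays alone, median centring, a second quantile normalization, a filter at percentile 25 of signal, trend and robust variances, the mean of probe sets, array weights and leaving out each array. Tables and figures used Python 3.11.15, pandas 2.3.3 and matplotlib 3.10.9.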

Additional observations from a re-analysis of the deposited data

Results flagged for a closer look

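Probe sets that no gene in the report represents also differed between KO+WT and KO cells. Of 16010 probe sets with no gene symbol, 42 were higher and 4 lower in KO+WT cells by limma (Benjamini-Hochberg adjusted p below 0.05 within these probe sets), with a largest rise of 7.84 (log2). Of 1814 probe sets with several gene symbols, 76 were higher and 4 lower, with a largest rise of 7.91. Both kinds were left out of every count in the report because they name no single gene, and are given here because they hold signal outside the genes compared. Groups of 3 arrays are too small for the check on single outlying samples.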

How the results depend on the processing

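The count of 2-cell genes higher in KO+WT than in KO cells, 27, stayed between 24 and 33 under all 14 alternatives. The counts over all genes moved more. In the fit of the 6 arrays alone, with fewer samples to estimate the spread, 71 genes were higher and 4 lower, against 162 and 22. Lower calls were 37 after median centring and 34 without low-signal genes. Leaving out each array in turn gave 80 to 154 higher and 6 to 12 lower genes. With a replicate block the counts were 353 higher and 141 lower, and all 184 genes were kept. Deviations from the group means of same-numbered KO+WT and KO arrays correlated by 0.307, 0.064 and 0.293 for replicates 1, 2 and 3, against -0.303 to 0.037 for other pairs. Each KO+WT array correlated best with its own number. Replicate 2 was under 0.1 and no label explains the numbers, so the main fit did not take the arrays as paired. Some signal did follow the number in every group. The mean of the ATF4 and unfolded protein response genes fell from replicate 1 to replicate 3, from 8.05 to 7.53 in KO+WT and 8.15 to 7.57 in KO cells. It fell from 7.83 to 7.55 in parental and from 8.12 to 7.49 in KO+Mut cells. The main fit leaves such a shared shift in the spread among arrays. The other alternatives (quantile normalization, trend and robust variances, mean of probe sets, array weights) gave 138 to 221 higher and 20 to 26 lower genes. Of 979 values for 70 named genes, 877 kept their direction and side of the threshold, 98 lost the call, 4 gained it and 0 reversed. Where other causes are not named, the cause was not tested. Signals below 2.745, the lower quartile of genes in KO cells, cannot be separated from background, which limits the sizes of 17 of the 45 rises of 2 or more.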

Other observations

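Among the 140 changed genes that were in no list, several smaller rises outside the genes described above encode a nuclear receptor, secreted factors, channels and enzymes; they were chosen after their values were seen. Rxra, the gene of the retinoid X receptor alpha, was at 6.34, 7.0 and 6.83 in KO+WT cells, against 5.57, 5.46 and 5.48 in KO cells (difference 1.22, SE 0.19, limma adjusted p = 0.00815). The chemokine gene Cxcl14 was at 6.38, 6.58 and 6.09 in KO+WT cells, against 5.10, 5.12 and 5.20 in KO cells (difference 1.21, SE 0.16, adjusted p = 0.0034). The potassium channel gene Kcnn2 was at 4.96, 4.48 and 4.78 in KO+WT cells, against 3.40, 3.69 and 3.32 in KO cells (difference 1.27, SE 0.18, adjusted p = 0.00409). The KO+WT and KO arrays did not overlap in any of the 3.

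The carbonic anhydrase genes Car7 and Car4 differed by 1.05 (SE 0.16, adjusted p = 0.00689) and 0.88 (SE 0.14, adjusted p = 0.00772). Car4 was at 5.15, 5.0 and 4.94 in KO+WT cells, against 4.00, 4.22 and 4.24 in KO cells, and averaged 6.0 in parental cells. The calls of these 5 genes were kept in each of the 6 fits that left out an array, with a highest adjusted p of 0.049. Of all 115 smaller rises 29 were kept in every fit, and these 5 were chosen with their values known.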
